A study of Mus musculus with 33 samples.

Results

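The genes described here are those whose symbol carries the prefix of proteasome subunits in mouse, Psma to Psmg followed by a number. Of 10412 named genes measured above background, 39 matched, and all 39 named members of the family on the array passed the filter on dim probes. They are read by 61 probes, 18 of them have several, and the probe with the highest mean stands for each gene. A pair of them, Psmc3ip and Psme3ip1, share the prefix as binding partners and are not subunits. Members with no named probe in the table, such as Psma1 and Psmd2, were not analysed here.

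The proteasome is the protease of the cytosol and nucleus that degrades proteins tagged with ubiquitin. Its barrel, the 20S core, is made of alpha and beta rings, and 3 beta subunits cut peptide bonds. In cells exposed to interferon gamma, and constantly in many leukocytes, the immune subunits Psmb8, Psmb9 and Psmb10 are built in place of Psmb5, Psmb6 and Psmb7, which makes the immunoproteasome, a major source of peptides for MHC class I. Caps regulate entry to the core: the 19S particle, with its ATPase ring, unfolds ubiquitinated proteins, and the PA28 ring of Psme1 and Psme2 is also induced by interferon gamma. In the pregnant uterus, stromal cells turn into decidua around the implanting embryo, and the placenta forms beside it.

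Total RNA from tissue of C57BL/6 mice, an inbred strain, all 8 weeks old, was hybridised to 33 Illumina arrays. There were 6 arrays of uterus from non-pregnant mice, and arrays of the uterine microenvironment 4 days (4 arrays), 6 days (6), 8 days (4), 10 days (4), 11 days (4) and 12 days (5) after fertilization. The labels give neither a further treatment nor a genotype, and do not say whether arrays came from separate animals or pools, so p-values cover the spread among these samples, part or all of which may be technical. Values are log2 normalized intensities, and a level is never set against that of another gene.

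From 15040 to 18692 probes were above background (detection p under 0.01) on 31 arrays. On non-pregnant replicate 4 the number was 13097 and on day 6 replicate 4 it was 13149, and these are called the dim arrays. Markers of cell types moved with the days, against non-pregnant uterus at limma's adjusted p under 0.05. Of 5 trophoblast genes, 4 were detected on no non-pregnant array and 5 of 5 rose at days 10, 11 and 12, as did 6 of 6 erythroid genes, where 26.6%, 30.7% and 31.8% of all genes rose. Of 10 macrophage and dendritic cell genes, all 10 fell at day 6 and 9 fell at day 12, where 18.9% and 29% of all genes fell. In such whole tissue, fewer cells of a type and less RNA per cell cannot be told apart.

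Across the 7 groups, 28 of the 39 genes passed limma's F test (adjusted p below 0.05), as did 80.2% of all genes. The 11 that did not pass were Psma4, Psma5, Psmb5 (the constitutive partner of Psmb8), Psmc5, Psmd4, Psmd5, Psmd6, Psmd9, Psmd11, Psmd14 and Psme2. Among these, Psma4, Psmc5, Psmd5, Psmd11 and Psmd14 were still called in single comparisons below. In comparisons with non-pregnant uterus, a gene "rose" or "fell" by limma at adjusted p under 0.05. All 6 of these comparisons share the non-pregnant arrays. At day 4, 1 gene rose and 0 fell (4.46% and 4.52% of all genes). At day 6, 7 rose and 5 fell (20% and 18.9%).

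At day 8, 12 rose and 6 fell (24.8% and 26.2% of all genes), and at day 10, 8 rose and 6 fell (26.6% and 27.4%). At day 11, 20 rose and 6 fell (30.7% and 27.5%), and at day 12, 23 rose and 6 fell (31.8% and 29%). In this fit, rises at days 11 and 12 thus made up a larger part of the members than of all genes, while falls did not. The rises were modest: at day 12 only Psmc3ip and Psme3 rose 2-fold or more, against 14.1% of all genes. Psmb8, Psmb9, Psmb10 and Psmb1 fell 2-fold or more, against 14% of all genes.

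The count of rises, and their share among called members, depended on the scaling. Shares of all genes under median scaling are not given here. Whether rises at days 11 and 12 exceed those of all genes under it was not tested. At day 12 it was 79.3%, and 61.5% when arrays were scaled to their median instead of by quantiles (8 rose, 5 fell). At day 11 it was 76.9%, and 60% under median scaling (6 rose, 4 fell). At day 10 it was 57.1%, with 100% under median scaling (4 rose, 0 fell) and 68.4% with the authors' normalized values. At day 8 it was 66.7%, with 100% under median scaling (2 rose, 0 fell), and that scaling left 0 calls at day 4, where it moved the median of all genes to 0.15.

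**Figure D1:**
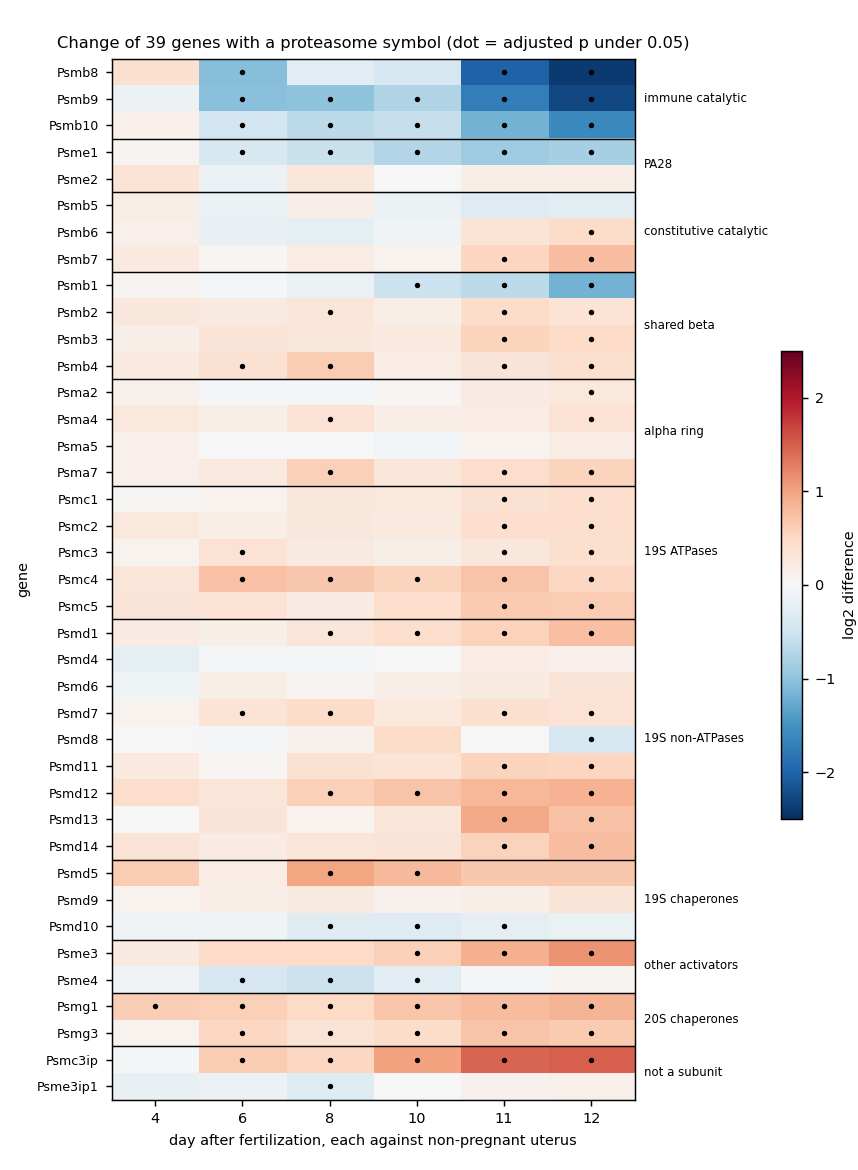
Log2 difference of each of the 39 genes (rows, grouped by role) between each day and non-pregnant uterus (columns). Colour gives the difference and a dot marks adjusted p under 0.05 by limma; the immune catalytic subunits and Psme1 form the band of falls at the top, Psmb1 is the separate fall among the shared beta subunits, and most other rows are weakly positive at days 11 and 12.

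Psmb8 and Psmb9 are encoded beside the genes of the peptide transporter, and Psmb10 lies on chromosome 8. On chromosome 17 of GRCm38.p6, Psmb9 lies at chr17:34182030-34187330, Tap1 at chr17:34187556-34197225, Psmb8 at chr17:34198195-34201454 and Tap2 at chr17:34204479-34216321. Psmb9 and Tap1 are read in opposite directions, with 225 bases between their starts. The stretches before the starts of Psmb8, Psmb9 and the constitutive Psmb5 (chromosome 14) are shown because the first pair are the immune genes with the largest falls and Psmb5 is the counterpart of Psmb8, which passed on no day. They come from RefSeq, are written on the gene's strand and end at the base before the start, at chr17:34197945-34198194 (plus strand), chr17:34187331-34187555 (minus strand) and chr14:54617996-54618245 (minus strand). Capitals mark matches to the motifs searched.
Psmb8: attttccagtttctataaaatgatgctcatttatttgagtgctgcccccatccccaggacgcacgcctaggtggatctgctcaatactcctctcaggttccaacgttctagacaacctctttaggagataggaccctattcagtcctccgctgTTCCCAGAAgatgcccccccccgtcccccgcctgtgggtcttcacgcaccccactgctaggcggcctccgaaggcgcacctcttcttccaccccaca
Psmb9: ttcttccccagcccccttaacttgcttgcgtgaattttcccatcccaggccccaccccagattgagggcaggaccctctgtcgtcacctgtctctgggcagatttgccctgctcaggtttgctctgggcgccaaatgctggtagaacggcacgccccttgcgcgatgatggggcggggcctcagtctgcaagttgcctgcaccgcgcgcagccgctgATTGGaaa
Psmb5: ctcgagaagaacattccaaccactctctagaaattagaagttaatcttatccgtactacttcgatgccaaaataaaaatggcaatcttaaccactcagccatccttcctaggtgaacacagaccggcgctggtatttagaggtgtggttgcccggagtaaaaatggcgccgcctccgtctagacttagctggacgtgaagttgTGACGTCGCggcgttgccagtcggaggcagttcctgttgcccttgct

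Each motif was searched on both strands in the 250 bases before the start, for which 34 of the 39 genes had a RefSeq window. For Psmb9 these reach past the start of Tap1, and the sequence shown leaves out that stretch. The gamma-activated site TTCNNNGAA was matched in Psmb8, 97 bases before the start, and in Psmg1, and in 7.02% of all windows. The core of the interferon-stimulated response element (GAAA, any 2 bases, GAAA) was matched in 3 members (Psmb3, Psmd4 and Psmd9) and in 2.98% of all windows. The core of the antioxidant response element, TGACNNNGC, was matched in 4 members, among them Psmb5 47 bases before its start, and in 10.2% of all windows. The CCAAT box was matched in 12 members, among them Psmb9 8 bases before its start as ATTGG, and in 33.8% of all windows. These are descriptions of the letters in these windows only.

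The 3 immune catalytic subunits fell at day 6 and had their lowest group means at days 11 and 12. Psmb9, the immune subunit that replaces Psmb6, had a lowest, median and highest level of 8.51, 8.74 and 9.31 on the 6 non-pregnant arrays. At day 4 its levels were 8.52, 8.62, 8.71 and 8.90, and on the 6 day 6 arrays they ran from 7.45 over a median of 7.87 to 8.09. Every day 6 array lay below every non-pregnant and every day 4 array.

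Later levels of Psmb9 were 7.98, 7.81, 8.08 and 7.51 at day 8 and 8.15, 8.21, 7.97 and 8.02 at day 10. They were 7.16, 6.86, 7.22 and 7.24 at day 11 and 6.19, 6.52, 6.58, 6.75 and 6.79 at day 12. Arrays of days 10, 11 and 12 do not overlap one another, in falling order. Against non-pregnant uterus the log2 difference was -1.05 at day 6 (SE 0.15, limma adjusted p = 1.1e-06), -0.996 at day 8, -0.75 at day 10, -1.72 at day 11 and -2.28 at day 12 (SE 0.15, adjusted p = 5.96e-14), a 4.84-fold fall. The day 4 difference of -0.15 (adjusted p = 0.649) did not pass.

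Psmb10, the immune counterpart of Psmb7, had a lowest, median and highest level of 9.87, 10.35 and 10.86 in non-pregnant uterus and of 9.62, 9.84 and 10.13 at day 6. The levels at day 11 were 9.16, 8.95, 9.48 and 9.01, and at day 12 they were 8.36, 8.56, 8.92, 8.83 and 8.96. Both of these groups lay below every non-pregnant array, while day 6 overlapped it. The difference from non-pregnant uterus was -0.47 at day 6 (SE 0.15, limma adjusted p = 0.014), -0.66 at day 8, -0.58 at day 10, -1.19 at day 11 and -1.61 at day 12 (SE 0.16, adjusted p = 3.49e-10). At day 4 it was 0.13 (adjusted p = 0.709). The day 6 fall did not pass without non-pregnant replicate 5 (adjusted p = 0.0551).

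Psmb8, which replaces Psmb5, was 10.31, 10.30, 10.24, 7.70, 11.10 and 10.17 on non-pregnant replicates 1 to 6 and 8.72, 9.51, 9.61, 6.64, 9.90 and 9.03 on day 6 replicates 1 to 6. The low array of each group is its dim array. Levels at day 8 were 9.47, 9.97, 9.67 and 9.66, and those at day 10 were 9.93, 9.43, 9.46 and 9.41. At day 11 they were 7.81, 8.11, 7.70 and 8.15, and at day 12 they were 7.83, 7.42, 7.68, 7.50 and 7.43, below every other array of the series except the dim ones.

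The difference of Psmb8 from non-pregnant uterus was -1.07 at day 6 (SE 0.41, limma adjusted p = 0.0365), -2.03 at day 11 (SE 0.45, adjusted p = 0.000323) and -2.40 at day 12 (SE 0.43, adjusted p = 1.52e-05). The differences of 0.41 at day 4, -0.28 at day 8 and -0.41 at day 10 did not pass. Without both dim arrays the day 4 difference was -0.04 (adjusted p = 0.917), and the differences at days 8 and 10 were -0.73 (adjusted p = 0.00302) and -0.86 (adjusted p = 0.000585), so whether they pass depends on those arrays. The day 6 value was then -1.07 (adjusted p = 4.29e-05) and the day 12 value -2.85 (adjusted p = 1.2e-13). The day 6 call did not pass without any one of non-pregnant replicates 1, 2, 3, 5 and 6 or day 6 replicates 1 and 4, with values from -1.52 to -0.61 over all 12 arrays left out in turn (adjusted p = 0.00042 to 0.142).

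A second Psmb8 probe, near background and detected on 1 of 4 day 11 and 1 of 5 day 12 arrays, gave levels of 6.21 to 6.97 in non-pregnant uterus, with 6.97 on the dim replicate 4. The probes thus disagree on that array: it was the lowest by one and the highest by the other. The second probe differed from non-pregnant uterus by -1.53 at day 11 and -1.63 at day 12 (SE 0.19, limma adjusted p = 1.17e-08). A second Psmb10 probe gave -1.77 at day 12 (SE 0.13, limma adjusted p = 9.44e-13). Over all members, 22 further probes were fitted, 10 were called at day 12 together with the chosen probe, and 0 of these had the opposite sign.

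**Figure D2:**
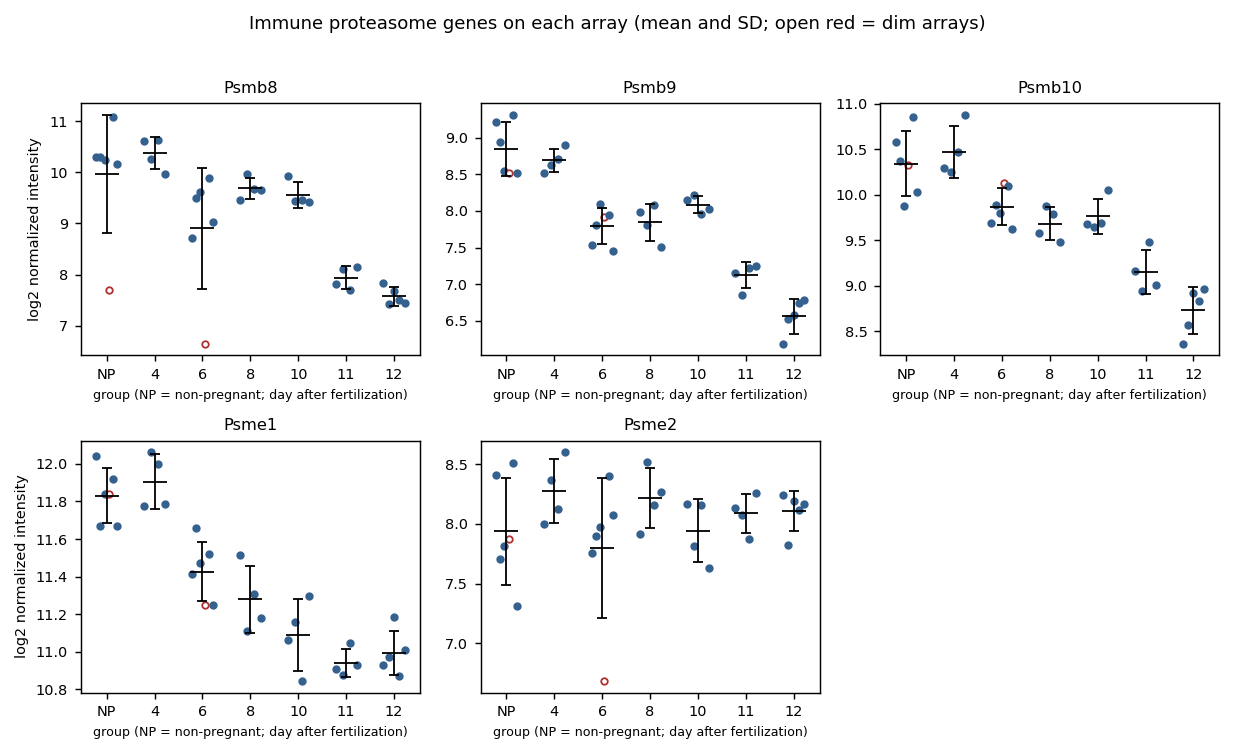
Log2 normalized intensity of Psmb8, Psmb9, Psmb10, Psme1 and Psme2 on each of the 33 arrays (points) by group, with the group mean and SD (bars); each panel has its own axis. Open red points are the dim arrays, where Psmb8 was 7.70 and 6.64; the group means of Psmb8, Psmb9 and Psmb10 are lowest at days 11 and 12, Psme1 is low from day 6 on, and Psme2 has no such step.

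Psme1 and Psme2 form one ring, PA28, and their genes are neighbours on chromosome 14 (chr14:55578494-55581527 and chr14:55587440-55591101). Psme1 had a lowest, median and highest level of 11.67, 11.84 and 12.04 in non-pregnant uterus and of 11.25, 11.44 and 11.66 at day 6. At day 11 it was 10.91, 10.88, 11.05 and 10.93, and at day 12 it was 10.93, 10.97, 11.19, 10.87 and 11.01. The groups from day 6 on did not overlap non-pregnant uterus. It fell by 0.40 at day 6 (SE 0.10, limma adjusted p = 0.00183), by 0.55 at day 8, by 0.74 at day 10, by 0.89 at day 11 and by 0.84 at day 12 (SE 0.11, adjusted p = 5.06e-08), and a second probe gave -1.08 at day 12. Under median scaling Psmb8, Psmb9, Psmb10 and Psme1 all still passed at days 11 and 12, whereas of their falls at days 6, 8 and 10 only that of Psmb9 at day 6 did (-1.07, limma adjusted p = 0.014).

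Psme2 ran from 7.32 to 8.51 in non-pregnant uterus and from 7.82 to 8.24 at day 12, and every day overlapped non-pregnant uterus. Its differences lay between -0.14 at day 6 and 0.33 at day 4, and none passed (limma adjusted p = 0.621 and 0.414, and 0.518 for 0.17 at day 12). Differences between the changes of the 2 PA28 genes were not tested. Psme3, which forms the nuclear PA28 gamma ring, rose by 0.59 at day 10, by 0.90 at day 11 and by 1.12 at day 12 (SE 0.21, limma adjusted p = 3.18e-05). Its levels were 8.97 to 10.13 in non-pregnant uterus and 11.38, 10.77, 10.38, 10.62 and 10.39 at day 12, without overlap. Psme4, the PA200 cap, fell by 0.41, 0.53 and 0.27 at days 6, 8 and 10 and differed by 0.06 at day 12 (adjusted p = 0.611).

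Of the 3 constitutive catalytic subunits, 2 rose and 0 fell at day 12 (31.8% and 29% of all genes). Psmb5, the chymotrypsin-like subunit, ran from 7.78 to 9.05 in non-pregnant uterus and was 8.44, 8.56, 7.94, 7.51 and 7.58 at day 12. Its differences lay between -0.32 and 0.18 with no call, and the groups overlapped on every day. Psmb6, the caspase-like subunit, ran from 10.63 to 11.61 in non-pregnant uterus and was 12.17, 11.59, 11.18, 11.55 and 11.63 at day 12. With all arrays it rose at day 12 only, by 0.46 (SE 0.19, limma adjusted p = 0.0318). The call was lost without non-pregnant replicate 6 or day 12 replicate 1 or 5 (lowest value 0.33). Without both dim arrays Psmb6 passed at day 11 (0.43, limma adjusted p = 0.0275) and day 12 (0.55, adjusted p = 0.00298). Psmb7, the trypsin-like subunit, ran from 10.96 to 11.33 in non-pregnant uterus and was 12.35, 11.74, 11.88, 11.80 and 11.78 at day 12. It rose by 0.54 at day 11 and 0.78 at day 12 (SE 0.14, limma adjusted p = 2.37e-05), without overlap. Under median scaling Psmb7 passed at day 12 (0.80, limma adjusted p = 0.0372) but not at day 11 (0.64, adjusted p = 0.128). Psmb6 did not pass at day 12 under that scaling (0.47, limma adjusted p = 0.245).

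Taking each immune subunit minus the constitutive subunit it replaces on the same array gave 3 pairs at 6 days, or 18 two-sided exact permutation tests adjusted together. These differences have no meaning as levels, only their change between groups does. Psmb9 minus Psmb6 was between -3.09 and -1.82 on non-pregnant arrays, between -4.58 and -4.09 at day 11 and between -5.99 and -4.59 at day 12. The change was -2.06 at day 11 and -2.74 at day 12, the latter 6.68-fold (exact permutation, adjusted p = 0.0214 and 0.0195). Psmb10 minus Psmb7 was between -1.46 and -0.23 on non-pregnant arrays, between -2.85 and -1.92 at day 11 and between -3.99 and -2.82 at day 12. It changed by -1.73 at day 11 and -2.39 at day 12 (exact permutation, adjusted p = 0.0214 and 0.0195).

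In these 4 cases the groups did not overlap, and the raw p-values, 0.00476 at day 11 and 0.00216 at day 12, are the smallest the exact test can give. Without any single day 11 array both day 11 tests had an adjusted p of 0.0536, fewer splits being possible. Psmb8 minus Psmb5 was -1.35 on the dim non-pregnant array and between 2.08 and 2.77 on the other 5. It changed by -2.12 at day 12 (SD 0.45 at day 12 and 1.51 in non-pregnant uterus, exact permutation adjusted p = 0.0545) and by -1.71 at day 11 (adjusted p = 0.0857). Without both dim arrays the day 12 value was -2.72 (adjusted p = 0.0179), and with the second Psmb8 probe it was -1.35 (adjusted p = 0.0122).

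At days 6, 8 and 10 the pair differences were negative for all 3 pairs, from -0.90 to -0.24, and none of the 9 passed. The adjusted p-values ran from 0.0612 for Psmb10 minus Psmb7 at days 8 and 10 to 0.895 for Psmb8 minus Psmb5 at day 10. Without both dim arrays all 9 passed, with values from -1.20 to -0.68. At day 4 the differences were 0.23, -0.28 and -0.10, and none passed.

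**Figure D3:**
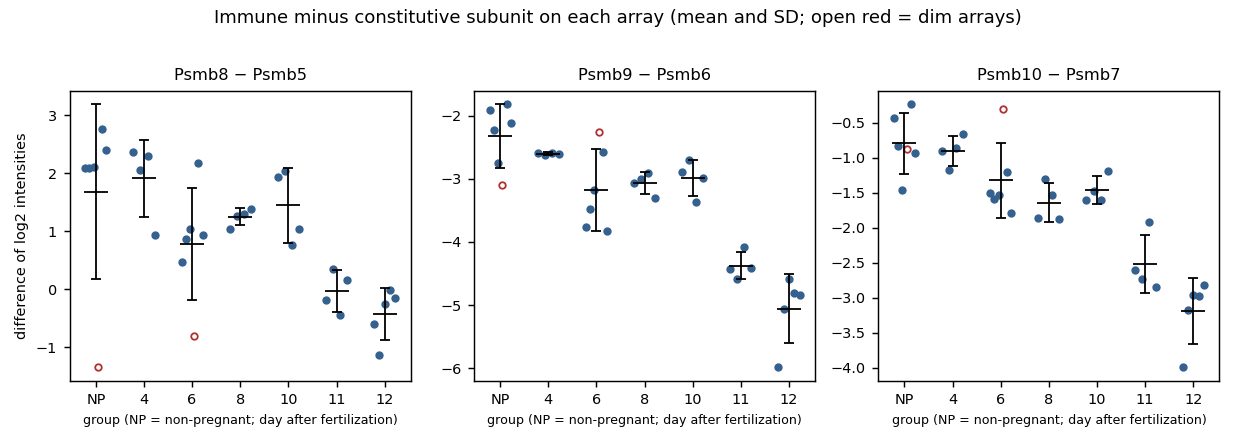
Log2 intensity of the immune subunit minus that of its constitutive counterpart on each of the 33 arrays (points) by group, with the group mean and SD (bars). Day 11 and day 12 lie below every non-pregnant array for the Psmb9 and Psmb10 pairs; in the Psmb8 pair the dim non-pregnant array (open red) at -1.35 lies below all of them.

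The other beta subunits, which both kinds of proteasome share, went up with 1 exception. Psmb2, Psmb3 and Psmb4 rose at days 11 and 12 by 0.32 to 0.56, where 30.7% and 31.8% of all genes rose. Psmb4 was highest at day 8 (0.64, SE 0.11, limma adjusted p = 9.76e-06) and was then the single member to fall from day 8 to day 10 (-0.45, adjusted p = 0.00602, background 8.06%; 0 rose, background 9.99%). Under median scaling Psmb4 passed at day 8 (0.82, limma adjusted p = 0.0126) but not at day 11 or 12 (adjusted p = 0.123 and 0.172). Its fall from day 8 to day 10 did not pass under that scaling (-0.35, limma adjusted p = 0.665). Psmb1, a non-catalytic subunit of the same ring, fell at days 10, 11 and 12. It ran from 11.40 to 12.02 in non-pregnant uterus and was 11.23, 11.01, 11.31 and 11.31 at day 10, 11.00, 11.11, 11.21 and 11.00 at day 11 and 11.19, 10.19, 10.54, 10.32 and 10.53 at day 12. From day 10 on no array reached the lowest non-pregnant one. The fall was 0.53 at day 10, 0.66 at day 11 and 1.19 at day 12 on the log2 scale (SE 0.13, limma adjusted p = 4.01e-09). It rests on 1 probe.

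Of the alpha ring 4 members were measured. At day 12, where 31.8% of all genes rose, Psma2, Psma4 and Psma7 rose by 0.27 to 0.56. Psma5 differed by 0.19 (limma adjusted p = 0.16). Psma7 led at day 8 with 0.60 (adjusted p = 0.000428). All 5 measured ATPases of the 19S particle, Psmc1 to Psmc5, rose at both day 11 and day 12, by 0.28 to 0.72 (30.7% and 31.8% of all genes). Psmc3 and Psmc4 rose already at day 6. Psmc4 ran from 10.77 to 11.52 in non-pregnant uterus and from 11.68 to 12.21 at day 6, without overlap. It rose by 0.72 (SE 0.13, limma adjusted p = 3.29e-05), the largest rise among the members on that day. Without both dim arrays Psmc4 rose by 0.73 and Psmg1 by 0.78.

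Among 9 non-ATPase subunits of the 19S particle, 6 rose and 0 fell at day 11 (30.7% and 27.5% of all genes). At day 12, 6 rose and 1 fell (31.8% and 29% of all genes). Psmd12, a subunit of the lid, rose by 0.87 at day 12, Psmd14, the deubiquitinase of the lid, by 0.77, and Psmd1, a scaffold of the base, by 0.76 (SE 0.12, limma adjusted p = 2.57e-06). Psmd13 ran from 10.87 to 12.06 in non-pregnant uterus and from 12.20 to 12.27 at day 11, a rise of 0.95 (SE 0.20, limma adjusted p = 0.00012). Psmd8 alone fell at day 12, by 0.43 (adjusted p = 0.0461). Psmd4, a ubiquitin receptor, and Psmd6 passed on no day.

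Assembly factors split. Psmg1 and Psmg3, chaperones that build the alpha ring, rose. In this fit Psmg1 was the only member called at every day. It ran from 7.35 to 8.17 in non-pregnant uterus and was 8.59, 8.42, 8.30 and 8.47 at day 4, without overlap. The rise was 0.61 at day 4 (SE 0.16, limma adjusted p = 0.0127), between 0.50 and 0.80 at days 6 to 11, and 0.85 at day 12 (SE 0.15, adjusted p = 1.09e-05). Under median scaling Psmg1 passed at day 12 only (0.90, limma adjusted p = 0.03), with adjusted p from 0.0899 to 0.364 on the earlier days. Psmd10 (gankyrin), a chaperone of the 19S base, fell by 0.30, 0.32 and 0.25 at days 8, 10 and 11. Psmd5, another such chaperone, rose by 0.98 at day 8, the largest rise among the members then (SE 0.33, limma adjusted p = 0.0147). That rank depended on the dim arrays: without both, Psmd5 rose by 0.69 and Psmc4 by 0.74. Psmd5 did not pass the F test (adjusted p = 0.0686). It was not detected on 1 of 6 non-pregnant arrays, and its day 10 call (0.80) was lost without non-pregnant replicate 1 or 4 or any single day 10 array (lowest value 0.51).

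Of the 2 genes that are not subunits, Psmc3ip, a cofactor of meiotic recombination, had the largest rise of all 39 at days 10, 11 and 12. It ran from 7.32 to 8.15 in non-pregnant uterus and was 9.28, 9.01, 9.07 and 9.06 at day 11 and 8.89, 9.08, 9.17, 9.12 and 9.45 at day 12, without overlap. The rise was 1.45 and 1.49 (SE 0.18 at day 12, limma adjusted p = 2.23e-08). Psme3ip1, which binds the PA28 gamma ring, fell at day 8 by 0.32 (adjusted p = 0.0328) and passed on no other day. Leaving aside these genes, the immune catalytic subunits and PA28, 32 members remain, and their median difference at day 12 was 0.44, beside 0.03 for all genes.

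**Figure D4:**
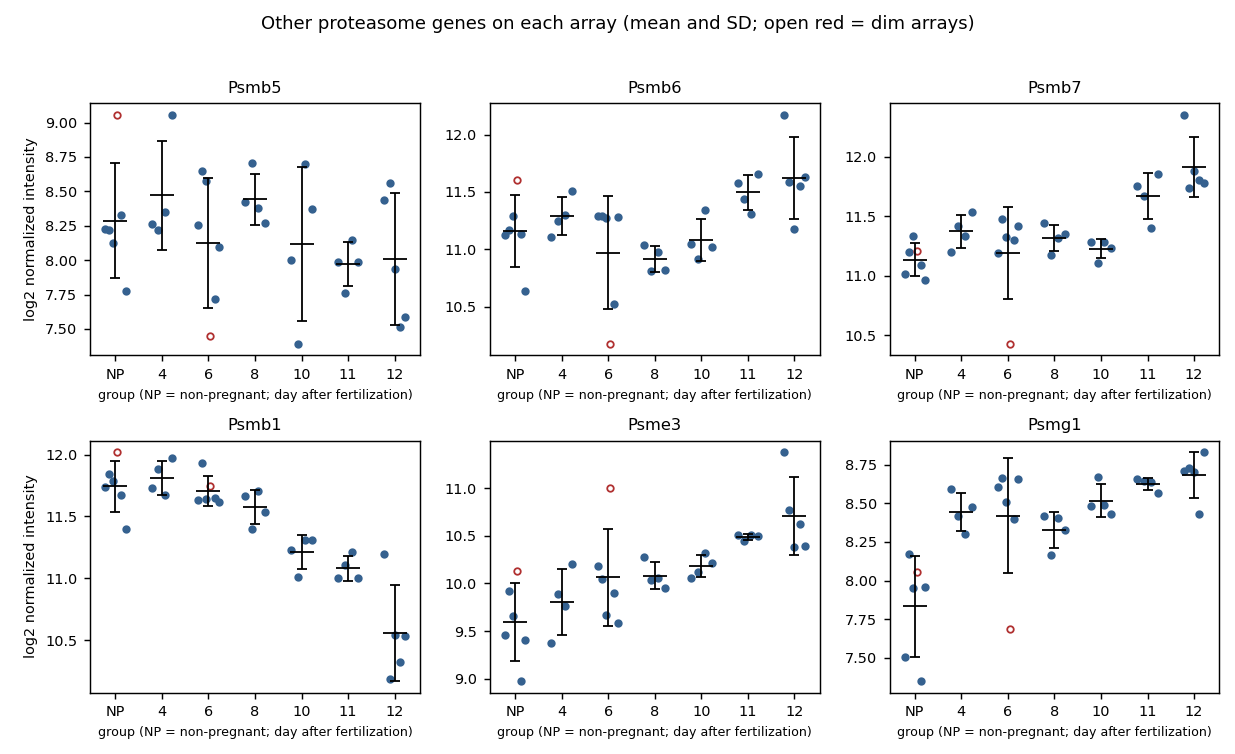
Log2 normalized intensity of Psmb5, Psmb6, Psmb7, Psmb1, Psme3 and Psmg1 on each of the 33 arrays (points) by group, with the group mean and SD (bars); each panel has its own axis and open red points are the dim arrays. Psmb7, Psme3 and Psmg1 are higher at day 12 than on every non-pregnant array, Psmb1 is lower, and Psmb5 overlaps at every day.

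Between successive days all 3 immune catalytic subunits fell from day 4 to day 6 and again from day 10 to day 11. From day 4 to day 6, Psmb8 fell by 1.48, Psmb9 by 0.90, Psmb10 by 0.60 and Psme1 by 0.48 on the log2 scale (limma adjusted p = 0.0149, 9.56e-05, 0.00767 and 0.00162), each without overlap. Without both dim arrays the Psmb8 difference was -1.02 (limma adjusted p = 0.000253). In total, 5 members fell and 3 rose in that step (background 12.6% and 13.1%). From day 6 to day 8 limma called 0 members (background 10.1% rising and 10.3% falling), 3 had an unadjusted p under 0.05, and other settings called up to 3. From day 10 to day 11, Psmb8 fell by 1.62, Psmb9 by 0.97 and Psmb10 by 0.61 (adjusted p = 0.0254, 0.000259 and 0.0231), and these were the 3 members that fell (background 5.95%). The Psmb8 call was lost without day 10 replicate 1 or day 11 replicate 1 or 3 (values from -1.69 to -1.49). Without both dim arrays the Psmb8 difference was -1.62 (limma adjusted p = 1.75e-06). Under median scaling, 1 member was called from day 4 to day 6 and 0 from day 10 to day 11.

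In the same step Psmd13 rose by 0.64 (limma adjusted p = 0.0421, background 8.23%). The call was lost in 7 of 8 fits that leave out 1 array, all but that without day 10 replicate 3 (lowest value 0.57). Without both dim arrays the Psmd13 difference was 0.64 (limma adjusted p = 0.00117). From day 11 to day 12, Psmb9 fell by 0.56 (limma adjusted p = 0.0444) and Psmb1 by 0.53 (adjusted p = 0.0219), and 0 members rose (background 3.26% and 3.37%). The Psmb9 call was lost without day 11 replicate 1, 3 or 4 or day 12 replicate 1, 2 or 3 (values from -0.64 to -0.46). Without both dim arrays the Psmb9 difference was -0.56 (limma adjusted p = 0.0253).

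The genes that act beside the immunoproteasome in class I presentation moved in part with it. Of 8 measured genes of that list, 6 fell and 2 rose at day 12 (29% and 31.8% of all genes), with a median of -1.06 beside 0.03 for all genes. Tap1, the peptide transporter chain that shares a start region with Psmb9, fell by 1.13 at day 6, 0.90 at day 8, 0.88 at day 10, 1.16 at day 11 and 1.71 at day 12 (SE 0.16, limma adjusted p = 1.14e-10). Tap2 fell at days 11 and 12 only, by 0.58 and 1.14. H2-K1, a class I heavy chain, fell by 1.74, B2m by 0.98 and Tapbp, tapasin, by 0.70 at day 12. Calr and Pdia3, general chaperones of the endoplasmic reticulum that also load class I, rose by 2.00 and 1.07.

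Nlrc5, the class I transactivator, rose at day 4 by 0.60 (limma adjusted p = 0.0467), then fell by 1.17 at day 6 and 1.52 at day 12 (SE 0.18, adjusted p = 1.79e-08). Irf1, the factor that carries the interferon gamma signal to Psmb9 and Tap1, did not pass at day 4 (-0.31, adjusted p = 0.139) and then fell, with differences of -0.80 at day 6, -1.29 at day 8, -1.42 at day 10, -2.22 at day 11 and -2.77 at day 12 (SE 0.12, limma adjusted p = 1.2e-18). Of 20 interferon response genes, 0 rose or fell at day 4, 15 fell at day 6, 9 fell and 1 rose at day 10, and 16 fell at day 12. The shares of all genes that fell were 4.52%, 18.9%, 27.4% and 29% on those days. Gbp2, an interferon-induced GTPase, fell by 2.67 at day 12.

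**Figure D5:**
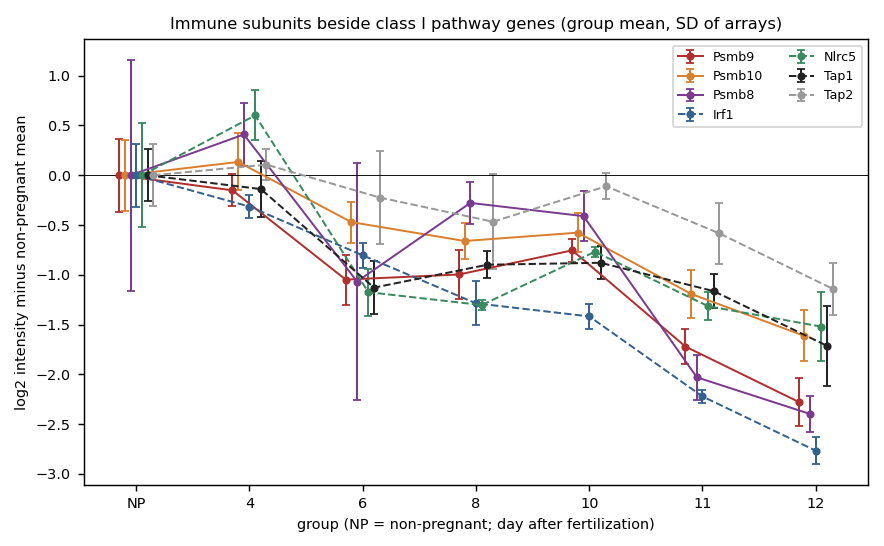
Group mean of log2 intensity minus the non-pregnant mean of the same gene for Psmb8, Psmb9 and Psmb10 (solid lines) and Irf1, Nlrc5, Tap1 and Tap2 (broken lines), with the SD of arrays as bars. All 7 genes are lowest at day 12, Irf1 at -2.77 and Tap2 at -1.14, and the widest bars, those of Psmb8 in non-pregnant uterus and at day 6, include the dim arrays.

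Of 9 pan-leukocyte genes, 7 fell and 2 rose at day 12 (29% and 31.8% of all genes), and 4 fell and 2 rose at day 10 (27.4% and 26.6%). The mean of the list over its genes, as a deviation from the 33-array mean, ran from -0.81 (the dim replicate) to 0.88 on non-pregnant arrays and from -0.69 to -0.27 at day 12. The same mean for macrophage and dendritic genes ran from 0.11 (the dim replicate) to 2.28 on non-pregnant arrays, from -0.80 to -0.07 at day 10, from -1.95 to -1.42 at day 11 and from -1.83 to -1.11 at day 12. Day 6 replicate 4 was at -2.49 on that list. No array of days 8, 11 and 12 detected any of 5 T and B cell genes. The part of these cells in the falls of Psmb8, Psmb9 and Psmb10 was not tested.

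The trophoblast list ran from -3.58 to -2.95 on non-pregnant arrays, from 3.33 to 3.71 at day 10, from 3.99 to 4.10 at day 11 and from 4.19 to 4.28 at day 12. All 5 measured 19S ATPases rose at days 11 and 12 (30.7% and 31.8% of all genes). Of these 5, 2 rose at day 6, 1 at day 8 and 1 at day 10 (20%, 24.8% and 26.6% of all genes). The part of conceptus tissue in these rises was not tested. Of 4 natural killer genes, 3 rose at day 10 (26.6% of all genes), and 1 rose and 1 fell at day 12, near the shares of all genes (31.8% and 29%).

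Of 13 measured genes that assemble, feed or regulate the proteasome without its symbol, 4 rose and 1 fell at day 12, where 31.8% of all genes rose and 29% fell, so the rises were near the background. Rad23b, a shuttle that carries ubiquitinated proteins to the 19S cap, rose by 0.97 (SE 0.14, limma adjusted p = 7.08e-07), and Vcp, the segregase upstream of it, by 0.63. Nfe2l1, the factor known to raise proteasome genes together, differed by 0.17 (adjusted p = 0.452), and Pomp, the assembly factor of the core, by 0.09 (adjusted p = 0.458). Nfe2l2, a stress-response factor, fell by 1.58 (SE 0.27, limma adjusted p = 7.99e-06).

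Likeness of pattern is given as Pearson's r over the 33 arrays, which fall into groups, so it describes these arrays and has no test. The gene most like Psmb9 was Psmb10 (0.948, and 0.726 after group means were removed), followed by Bcl6, Parp14, Irf1 (0.930) and Irgm2. Those most like Psmb8 were H2-M3 (0.952), Ifi207, Gsn, Lyz1 and Gbp2. Psmb8 and Psmb9 had 0.787, and 0.224 after group means were removed. Those most like the median of the constitutive members were Mrps22 (0.936), Fubp1, Gtf2e1, Jpt2 and Ints10. Against the median of the constitutive members, Psmb9 had -0.789 and Psmb10 -0.760. Against the same median without the gene itself, Psmb1 had -0.630 and Psmd1 0.854.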

How the data were processed

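The authors' deposited non-normalized table holds probe intensity and a detection p-value for each of 33 arrays, and the deposited series matrix holds log2 intensities that share one distribution over all arrays. The program that made them is not given in the sources used here. Arrays of both tables were matched by rank correlation (1 for each); replicate numbers differed for 16 arrays, always within a group, and those of the intensity table are used. RNA was Trizol-extracted and column-cleaned per the labels' protocols.

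Intensities were background corrected (limma's nec, offset 16, controls inferred from detection p), quantile normalized and put on log2. Probes with detection p under 0.01 on at least 4 arrays were kept; of several probes of a gene, the one with the highest mean in the series matrix was used. Symbols came from the platform annotation (15254 probes with 1 symbol, 5 with several); Entrez identifiers of 15248 matched and 0 symbols changed. Each gene was fitted by limma 3.58.1 in R 4.3.3 with a mean for each group (residual degrees of freedom 26, prior 4.43), with Benjamini-Hochberg adjustment over 10412 genes. The pair tests count splits of the arrays with an absolute difference at least as large. The fit was tested on simulated data. Sequences are RefSeq's on GRCm38.p6. Figures used matplotlib 3.10.9.

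Members, gene lists and tests were chosen with earlier results of these data known. Named genes are the members, the genes of the lists, and the 5 most alike; values by array are given for the catalytic pairs, PA28 and the largest rises and falls, and Psmb1, Psmb2, Psme3 and others were described after their values were seen. Alternatives were other background, scaling, filter and probe choices, the series matrix, only the 2 groups compared, array weights, replicate blocks and left-out arrays. The number of arrays limits precision.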

Additional observations from a re-analysis of the deposited data

Results flagged for a closer look

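In groups of 4 to 6 arrays, an array was set apart when its gap to the nearest of the others took up more of the group's range than Dixon's critical value allows. Of 119 groups tested, 13 were so marked, and chance marks about 1 in 20. The dim arrays account for 8 of them. On non-pregnant replicate 4, Psmb8 was 7.70 (others 10.17 to 11.10), and 6.64 on day 6 replicate 4, against 8.72 to 9.90. Psmb8 minus Psmb5 was -1.35 on the former, against 2.08 to 2.77.

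On day 6 replicate 4, Psmb7 was 10.43 (others 11.19 to 11.48), Psmg1 7.69 (8.40 to 8.66), Psmd5 4.35 (6.10 to 6.41) and Psmc3ip 7.45 (8.31 to 8.60), all low, while Psmd13 was high at 12.46 (11.18 to 11.62). On day 12 replicate 1, Psmb7 was 12.35 (others 11.74 to 11.88) and Psmc4 11.27 (11.74 to 11.85). The remaining 3 are Psmb8 at 9.93 on day 10 replicate 1 (others 9.41 to 9.46), Psmb10 at 10.05 on day 10 replicate 4 (9.64 to 9.68) and Psmb5 at 9.06 on day 4 replicate 4 (8.22 to 8.35).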

How the results depend on the processing

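No comparison of the members or pairs changed direction with a call. The counts below come without the shares of all genes called under each setting, so they describe the calls only. Under median scaling the counts of called members were 9 in the F test, 0, 2, 2, 4, 10 and 13 against non-pregnant uterus at days 4, 6, 8, 10, 11 and 12, 1 for day 6 against day 4, and 0 for day 10 against 8, 11 against 10 and 12 against 11. Median scaling let Psmb10 minus Psmb7 pass at day 8 (-0.91) and day 10 (-0.74) and Psmb8 minus Psmb5 at day 12 (-2.06). The cause was not tested. Without background correction the counts were 2 for day 8 against 6 and 1 for day 12 against 11; with the series matrix they were 2 at day 4 and 1 for each of those steps; with detection on all arrays of a group, 1 for day 8 against 6. Fits of only the 2 groups compared gave 0 at day 4, and 4, 4, 11 and 1 for day 6 against 4, 10 against 8, 11 against 10 and 12 against 11. Array weights gave 5 at day 4, and 3, 6 and 10 for day 8 against 6, 10 against 8 and 11 against 10.

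Without both dim arrays the counts were 5 at day 4, 19 at day 6 and 4 for day 10 against 8, and these pair differences passed: Psmb8 minus Psmb5 -1.19, -1.04, -0.85, -2.32 and -2.72 at days 6, 8, 10, 11 and 12, Psmb9 minus Psmb6 -1.20, -0.90 and -0.83 and Psmb10 minus Psmb7 -0.75, -0.86 and -0.68 at days 6, 8 and 10. With the second Psmb8 probe, chosen after seeing the data, Psmb8 minus Psmb5 was -0.86, -0.69, -0.48, -1.21 and -1.35 at days 6 to 12, all passing. Doubling the smaller tail of the exact test, also added then, changed no call.

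Of 88 pairs of arrays with the same replicate number, 19 had deviations correlated above 0.1 (median 0.0118, from -0.354 to 0.43). By the series matrix's numbers there were 22 (median 0.0407). Pairs with different numbers are not set beside them, so this does not decide whether the numbers pair the arrays. A replicate block gave 1 for day 8 against 6; with the series matrix's numbers, added after seeing the data, it gave 2 at day 4, 3 for day 10 against 8 and 1 for day 12 against 11.

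Leaving out 1 array at a time, the F test called 27 to 33. Counts against non-pregnant uterus were 1 to 2, 10 to 16, 13 to 20, 10 to 16, 22 to 27 and 26 to 30 at days 4 to 12, and between days in order 5 to 8, 0 to 1, 1 to 1, 2 to 4 and 0 to 2. At days 4, 6, 8, 10, 11 and 12, Psmb8 minus Psmb5 ran from -0.38 to 0.55, -1.51 to -0.59, -1.04 to -0.22, -0.85 to -0.011, -2.32 to -1.50 and -2.72 to -1.90. Psmb9 minus Psmb6 ran from -0.44 to -0.18, -1.04 to -0.73, -0.90 to -0.65, -0.83 to -0.55, -2.21 to -1.96 and -2.89 to -2.51. Psmb10 minus Psmb7 ran from -0.24 to 0.01, -0.73 to -0.41, -0.98 to -0.73, -0.80 to -0.55, -1.93 to -1.61 and -2.52 to -2.19. Members near background, such as Psmd5, Psmd6 and Psmd9, are limited by signal.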
